A study of Mus musculus with 16 samples.

Results

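Imprinted genes are expressed mainly from the copy inherited from 1 parent, and most lie in clusters whose members share a control region that is methylated on the maternal or the paternal chromosome. Many of them act in growth, placental function and metabolism, and several are active in endocrine cells. The 40 genes described here were listed by name, and 38 of them were found among the 54146 genes of the tables, in 16 clusters of which 10 held at least 2 genes. Ddc-ps and Rtl1 were not found by name and were not analysed here. RNA of whole pancreatic islets had been sequenced from mice of the 8 strains that founded the Diversity Outbred population, the inbred 129, AJ, B6, NOD and NZO and the wild-derived CAST, PWK and WSB, all aged 26 weeks and all kept on a high-fat diet, so that no group on another diet was compared. There were 91 libraries, from both sexes of each strain: 18 were B6, 16 WSB, 14 each AJ and CAST, 10 each 129 and NOD, 5 PWK and 4 NZO. NZO had 1 male library and PWK had 1 female library. All 8 strains are inbred, so these values are total levels, and expression from the maternal or the paternal copy was not measured.

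Each file was taken as 1 library, and since the labels do not say that the libraries came from separate mice, p-values measure the spread between libraries. The libraries held between 16928552 and 35196145 expected counts in total, and in these 3 counts correspond to 0.177 and 0.0852 CPM, the count scaled to a fixed library total. Libraries of 129, NOD, NZO and PWK were all numbered above 65 and those of the other strains below 66, so a batch that followed these numbers could not be told apart from strain. Per the labels, islets were collected, extracted and sequenced in 4 waves of mice, and libraries of the last wave were made at another centre, but no library is assigned to a wave, so waves could not be entered in any fit. Xist and Y-linked counts went against the labelled sex in 12 libraries, 6 of them 129, 4 WSB and 2 NOD. Islet hormone transcripts were present in every library, with Ins2 at 136564 to 475853 TPM, a level per transcript length. The summed level of 10 acinar markers had medians of 5026 CPM in AJ and 16699 in 129 but 55084 to 86901 in the other strains. In bulk islets, fewer cells of a type and less RNA per cell cannot be told apart.

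All but 4 of the 38 genes passed the filter on low counts. Those 4 were H19, Phlda2, Magel2 and Mkrn3, whose median expected counts were 1, 2, 4 and 1. All 34 genes tested differed between strains (edgeR's quasi-likelihood F test, Benjamini-Hochberg adjusted p from 4.6e-56 for Dlk1 to 0.00321 for Mcts2), but so did 94.7% of the 19044 genes tested. The size of the differences was also near that of other genes. The range of strain means of log2(normalized count + 1) had a median of 1.00 over the 34 members and of 1.03 over all genes tested, and it was at least 1 in 17 members (50%) against 51.1% of all genes. The heat map of strain means shows how unevenly that range was spread, with Dlk1, Nnat, Slc22a18, Mest, Igf2, Plagl1 and Asb4 at 2.40 or more and Commd1, Ube3a and Copg2 at 0.34 or less.

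**Figure D1:**
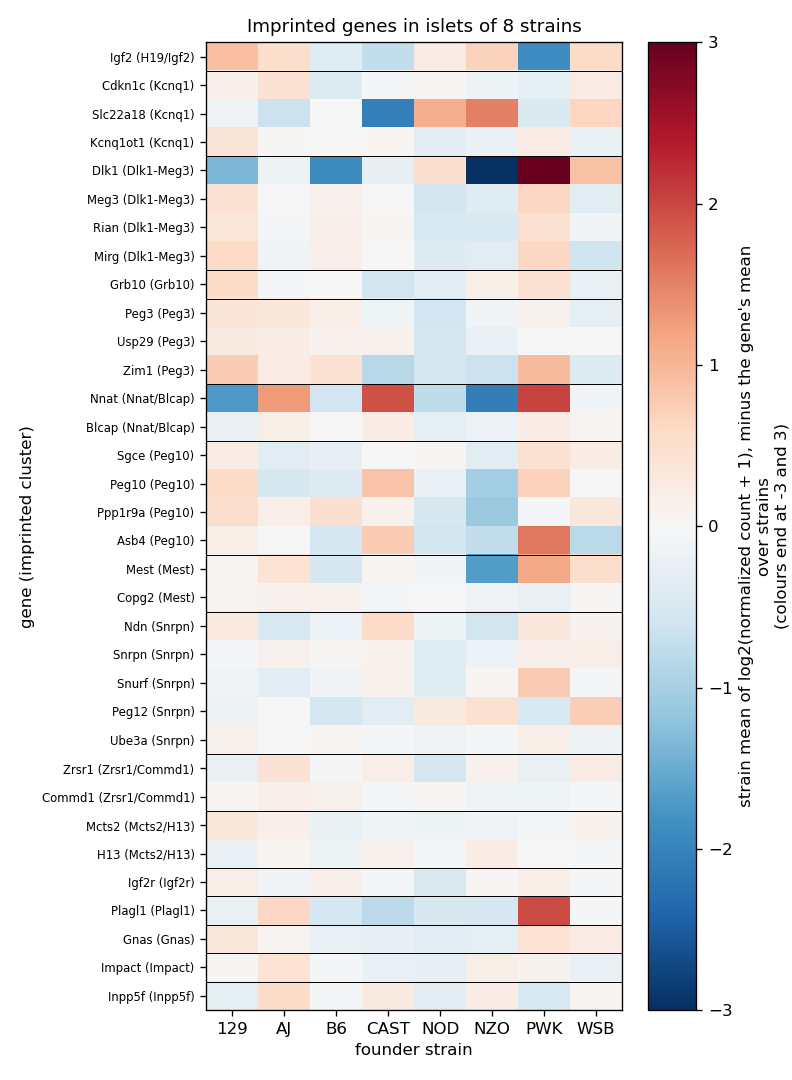
Strain means of the 34 tested imprinted genes (rows, grouped by cluster) in the 8 strains (columns), as the strain mean of log2(normalized count + 1) minus the mean of the gene over the strains. Red is above and blue below that mean, the colours end at -3 and 3, and Dlk1 spans 8.73 on this scale between NZO and PWK.

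The promoters of Dlk1 and Nnat are shown because these genes had the largest ranges of strain means among the tested members (8.73 and 4.10 on the log2 scale). Both are the 250 reference bases before the start site in RefSeq (GRCm38.p6, plus strand), with CG pairs, the sites of DNA methylation, in capitals. No base of PWK or of another strain was read, and methylation was not measured. The Dlk1 window is chr12:109452573-109452822 and the Nnat window is chr2:157559828-157560077, which lies inside Blcap and overlaps an exon of a non-coding Blcap transcript on the other strand.
Dlk1: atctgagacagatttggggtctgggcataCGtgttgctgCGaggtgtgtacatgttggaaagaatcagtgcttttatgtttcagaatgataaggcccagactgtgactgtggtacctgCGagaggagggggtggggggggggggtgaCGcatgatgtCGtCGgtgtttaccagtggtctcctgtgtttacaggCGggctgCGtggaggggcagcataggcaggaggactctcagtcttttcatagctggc
Nnat: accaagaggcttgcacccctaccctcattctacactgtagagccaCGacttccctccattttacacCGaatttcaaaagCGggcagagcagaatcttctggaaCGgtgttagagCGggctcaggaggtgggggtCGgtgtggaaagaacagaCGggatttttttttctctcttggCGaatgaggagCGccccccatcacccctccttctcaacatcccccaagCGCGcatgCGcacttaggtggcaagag
The Dlk1 window held 8 CG pairs and the Nnat window 12. At least as many were present in 43.4% and 33.8% of the 27025 genes with a promoter entry. Of the 33 members with an entry, 19 (57.6%) held at least 10 CG pairs in the first listed promoter, against 38.2% of all genes, and the members ranged from 0 to 40.

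In the Dlk1-Meg3 cluster of chromosome 12, Dlk1 was far higher in PWK than elsewhere. The range of strain means was 8.73 on the log2 scale for Dlk1 and 1.18, 0.90 and 1.22 for the non-coding RNAs Meg3, Rian and Mirg of the same cluster. Dlk1 (chr12:109452823-109463336), which encodes a transmembrane protein related to Notch ligands, is known as a paternally expressed gene. Its TPM in the 5 PWK libraries were 566.4, 478.55, 593.2, 272.11 and 220.02. The highest value in any library of another strain was 27.08 TPM, in WSB, so the groups did not overlap. Median levels were 12.6 TPM in WSB, 13.3 in NOD, 8.54 in AJ, 6.1 in CAST, 3.92 in 129 and 2.05 in B6. The 4 NZO libraries had 1.7, 0.71, 0.63 and 1.49 TPM and overlapped with B6, whose lowest library had 0.76 TPM. Dlk1 was thus highest in PWK and lowest in NZO, with both sets of calls made against each of the other 7 strains. The log2 fold change was 4.82 ± 0.22 (SE) for PWK over WSB (edgeR, adjusted p = 5.98e-35) and 8.95 ± 0.47 for PWK over NZO (adjusted p = 1.05e-29), whereas B6 exceeded NZO by 1.41 ± 0.36 (adjusted p = 0.001). Without the NZO library at 51.5 normalized counts, the last difference was 1.91. With acinar, lymphocyte, alpha and delta cell marker levels as covariates (the 4-marker fit, chosen after seeing the data), it was 0.70 and no longer called (adjusted p = 0.225).

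**Figure D2:**
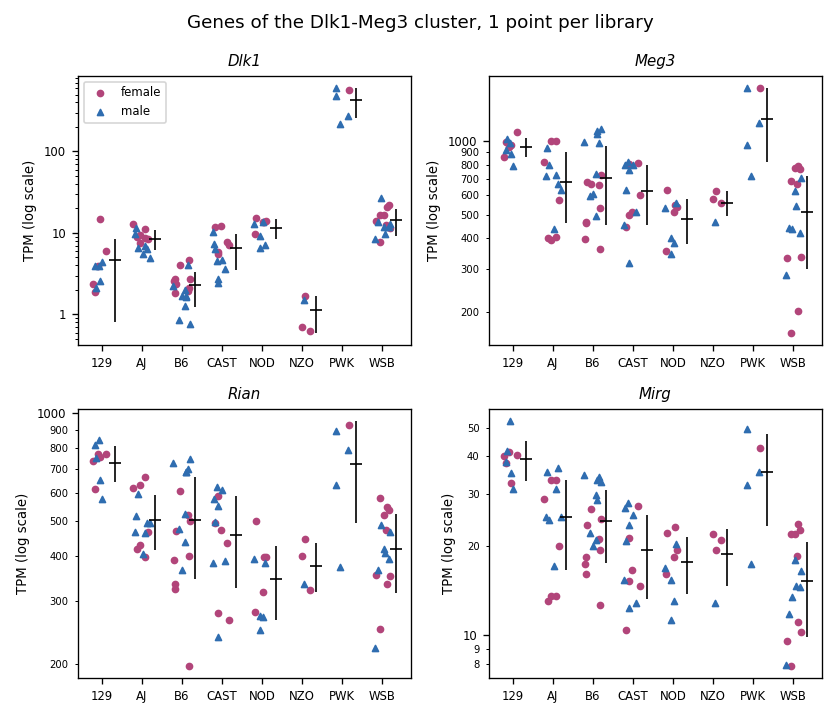
TPM (log axes) of 4 genes of the Dlk1-Meg3 cluster by strain, 1 point per library, circles female and triangles male as labelled, with the mean and SD beside the points. The 5 PWK libraries lie between 220.02 and 593.2 TPM for Dlk1, above every other library, while the points of Meg3, Rian and Mirg overlap between strains.

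Meg3, Rian and Mirg are long non-coding RNAs that are known to be expressed from the maternal chromosome. Meg3 (chr12:109541001-109571726) had the highest mean TPM of all members, 679 ± 274 (SD, n = 91). Its medians ran from 492 TPM in WSB and 521 in NOD to 957 in 129 and 1186 in PWK. The 5 PWK libraries had 1643.13, 963.06, 1644.35, 1185.8 and 722.87 TPM, and the values of every strain overlapped with those of others. Meg3 was 1.08 ± 0.22 higher on the log2 scale in PWK than in NOD (edgeR, adjusted p = 1.88e-05), but only 0.67 (adjusted p = 0.0762) in the 4-marker fit. Rian had 376 ± 58.8 TPM (SD, n = 4) in NZO and 724 ± 228 (n = 5) in PWK, a log2 fold change of 0.86 ± 0.18 (adjusted p = 6.18e-05). Mirg had 15.3 ± 5.37 TPM (n = 16) in WSB and 35.4 ± 12.1 (n = 5) in PWK, a log2 fold change of 1.12 ± 0.19 (adjusted p = 6.15e-07). Among AJ, B6, CAST and WSB alone, Meg3 and Rian no longer differed at the threshold, but they did when the range of library numbers, 1 to 32 or 34 to 65, was added as a covariate. Meg3 levels moved with that range inside strains. In WSB the median was 335 TPM in the 7 libraries numbered 1 to 32 and 690 in the 9 numbered 34 to 65, and in AJ it was 506 in 8 and 810 in 6.

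The balance within this cluster therefore differed between strains. The log2 ratio of Dlk1 to Meg3 TPM, with 0.1 added to each, was -1.57 ± 0.40 (SD, n = 5) in PWK and -8.93 ± 0.70 (n = 4) in NZO (permutation test of strain labels, p = 1e-05, the smallest that 100000 permutations can give, adjusted p = 1.39e-05 over 32 pairs). The ratio of Meg3 to Rian ranged only from 0.19 ± 0.42 in WSB to 0.77 ± 0.17 in PWK (adjusted p = 0.00612). Within strains, Meg3 rose and fell with its non-coding neighbours from library to library. Residuals of log2(normalized count + 1) after strain and sex means gave r = 0.92 and rho = 0.91 for Meg3 and Mirg over 91 libraries (within-strain permutation test, p = 1e-05 and adjusted p = 4.57e-05 for both), and r = 0.90 without the 2 libraries farthest from the Meg3 median. For Meg3 and Rian r was 0.81 and rho was 0.81 (p = 1e-05, adjusted p = 4.57e-05, permutation test, r = 0.77 without 2 libraries). Dlk1 and Meg3 gave r = 0.11 (p = 0.262, adjusted p = 0.354, permutation test) and rho = 0.06 (p = 0.545, adjusted p = 0.671), and r = 0.15 without 2 libraries. With means of strain by range of library numbers removed and permutation within these groups, an alternative chosen after seeing the data, r was 0.89 and rho 0.83 for Meg3 and Mirg and 0.80 and 0.74 for Meg3 and Rian (permutation test, p = 1e-05 and adjusted p = 4.57e-05 in each). Within the 3 ranges taken alone, of 31, 31 and 29 libraries, r ran from 0.83 to 0.90 for Meg3 and Mirg and from 0.74 to 0.95 for Meg3 and Rian. Such values were not particular to the cluster. With Peg3 of chromosome 7, residuals after strain and sex means gave r = 0.73 for Meg3 and 0.84 for Rian over 91 libraries. Of all pairs of members between clusters, 4.35% reached an r of 0.5.

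Besides Dlk1, 4 members were higher in PWK than in each of the other 7 strains, namely Plagl1, Asb4, Mest and Snurf, and no member was highest in another strain by this rule. Some alternatives did make such calls, among them Magel2 in CAST with each of 3 other filters, Impact in AJ with TMM factors and Ndn in CAST with DESeq2. The 5 genes called in PWK are 5 of 34 members, while 23.4% of all genes tested were highest in 1 strain, whichever of the 8 it was. The share of all genes highest in PWK is not given here, so the place of all 5 in PWK cannot be set against it. Plagl1 (chr10:13060504-13131694) encodes a zinc finger transcription factor. Its TPM in PWK were 31.33, 18.4, 25.92, 23.28 and 14.55, and the highest library of another strain, an AJ library, had 12.99. All PWK libraries were thus above all others. PWK exceeded AJ by 1.40 ± 0.18 (edgeR, adjusted p = 3.28e-10) and CAST, the lowest strain, by 2.7 ± 0.18 (adjusted p = 2.7e-23) on the log2 scale.

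Asb4 encodes an ankyrin repeat protein with a SOCS box, a domain that recruits ubiquitin ligases, and lies in the Peg10 cluster (chr6:5383386-5433022). Its TPM in PWK were 7.1, 5.77, 7.19, 6.06 and 2.84, and CAST, the next strain, reached 5.42. In normalized counts the 5 PWK libraries (281 to 361) lay above every other library, although in TPM they overlapped with 129, AJ and CAST. The log2 fold change was 0.75 ± 0.20 over CAST (edgeR, adjusted p = 0.00173) and 2.34 ± 0.20 over WSB (adjusted p = 2.19e-18).

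Mest, which encodes a protein of the alpha/beta hydrolase fold and is known as a paternally expressed gene, was highest in PWK and lowest in NZO. Its TPM were 17.6, 7.14, 13.56, 9.46 and 4.72 in PWK and 1.28, 1.28, 1.27 and 1.96 in NZO. PWK overlapped with 129, AJ, B6, CAST, NOD and WSB, and NZO overlapped with B6, whose lowest library had 1.08 TPM. Its log2 fold change was 0.60 ± 0.21 for PWK over WSB (edgeR, adjusted p = 0.0146) and 1.25 ± 0.27 for B6 over NZO (adjusted p = 0.000125). In the 4-marker fit B6 over NZO was 0.56 (adjusted p = 0.204) and PWK over NZO 1.34 (adjusted p = 0.0911), so Mest was no longer called lowest in NZO. Without the PWK library at 17.6 TPM, or without the 12 libraries that went against their sex label, Mest was no longer highest in PWK, nor was it with no filter on low counts (0.56 over WSB, edgeR, adjusted p = 0.0514). Copg2, which encodes a coatomer subunit and overlaps Mest at its end, had a range of strain means of only 0.34 and was 0.33 ± 0.06 higher in B6 than in PWK (adjusted p = 1.8e-06), and by 0.16 (adjusted p = 0.225, edgeR) in the 4-marker fit. The log2 ratio of Mest to Copg2 went from -0.46 ± 0.41 (SD, n = 5) in PWK to -3.01 ± 0.30 (n = 4) in NZO (permutation test, adjusted p = 1.39e-05).

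Snurf, a short coding unit on the transcript of Snrpn, had 46.37 to 82.42 TPM in PWK, and NZO, AJ and 129 reached 50.79, 49.74 and 48.17. PWK exceeded CAST by 0.66 ± 0.18 (edgeR, adjusted p = 0.00173), and without either of 2 NZO libraries, replicates 2 and 3, Snurf was no longer highest in PWK. Its count is uncertain, since Snurf and Snrpn share reads that the quantification had to divide. Snrpn, which encodes a splicing protein, ranged from 13.3 to 38.4 TPM over all libraries and was called highest in no strain.

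PWK also stood apart in marker levels. The summed level of the 2 delta cell markers, Sst and Hhex, had a median of 7696 CPM in PWK (3278 to 8611) and medians of 699 in NZO to 4283 in 129 elsewhere. The 4 alpha cell markers had medians of 21287 in PWK, 23534 in 129 and 4785 to 14286 in the other 6 strains. In the 4-marker fit, which has these levels among its covariates, Dlk1 and Plagl1 were still highest in PWK, at log2 fold changes of 4.38 over WSB and 0.83 over AJ. Asb4, Mest and Snurf were not called highest there, although Asb4 was at 0.62 over CAST (edgeR, adjusted p = 0.301) and 2.18 over WSB (adjusted p = 5.63e-14), Snurf at 0.50 over CAST (adjusted p = 0.343) and Mest at 0.35 over WSB (adjusted p = 0.244).

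Nnat was high in 3 strains. It encodes neuronatin, a small membrane protein that is known to be abundant in beta cells, and lies within an intron of Blcap on the other strand (chr2:157560078-157562522). Median levels were 182 TPM in PWK, 124 in CAST and 89.3 in AJ, against 26.3 in WSB, 22.3 in NOD, 21.1 in B6, 12.2 in 129 and 8.68 in NZO. The 5 PWK libraries had 181.66, 187.59, 219.0, 116.66 and 72.87 TPM. The 4 NZO libraries had 8.97, 10.59, 8.38 and 7.59 TPM. PWK overlapped with AJ and CAST, and no PWK library overlapped with the other 5 strains, whose highest value was 59.45 TPM in WSB. PWK exceeded NZO by 4.26 ± 0.36 on the log2 scale (edgeR, adjusted p = 1.7e-17), and by 2.72 in the 4-marker fit (adjusted p = 0.00061). Blcap, whose protein is known from bladder cancer, had a range of 0.50 and between 12.43 and 44 TPM over all libraries. The log2 ratio of Nnat to Blcap was 2.04 ± 0.33 (SD, n = 5) in PWK and -1.52 ± 0.15 (n = 4) in NZO (permutation test, adjusted p = 1.39e-05), and Nnat exceeded Blcap in 50 of 91 libraries. Within strains the residuals of both gave r = 0.51 (p = 2e-05, adjusted p = 8e-05, permutation test) and rho = 0.41 (p = 0.00021, adjusted p = 0.00084), and r = 0.54 without 2 libraries. Libraries numbered 1 to 32 alone gave r = 0.21 (permutation test, p = 0.266, adjusted p = 0.634), those numbered 34 to 65 r = 0.39 (p = 0.0329, adjusted p = 0.081, permutation test) and those above 65 r = 0.78 (p = 0.0001, adjusted p = 0.00064, permutation test). Reads of overlapping genes on opposite strands cannot be told apart where strand was not used, and the strand setting is not given in the sources used here.

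**Figure D3:**
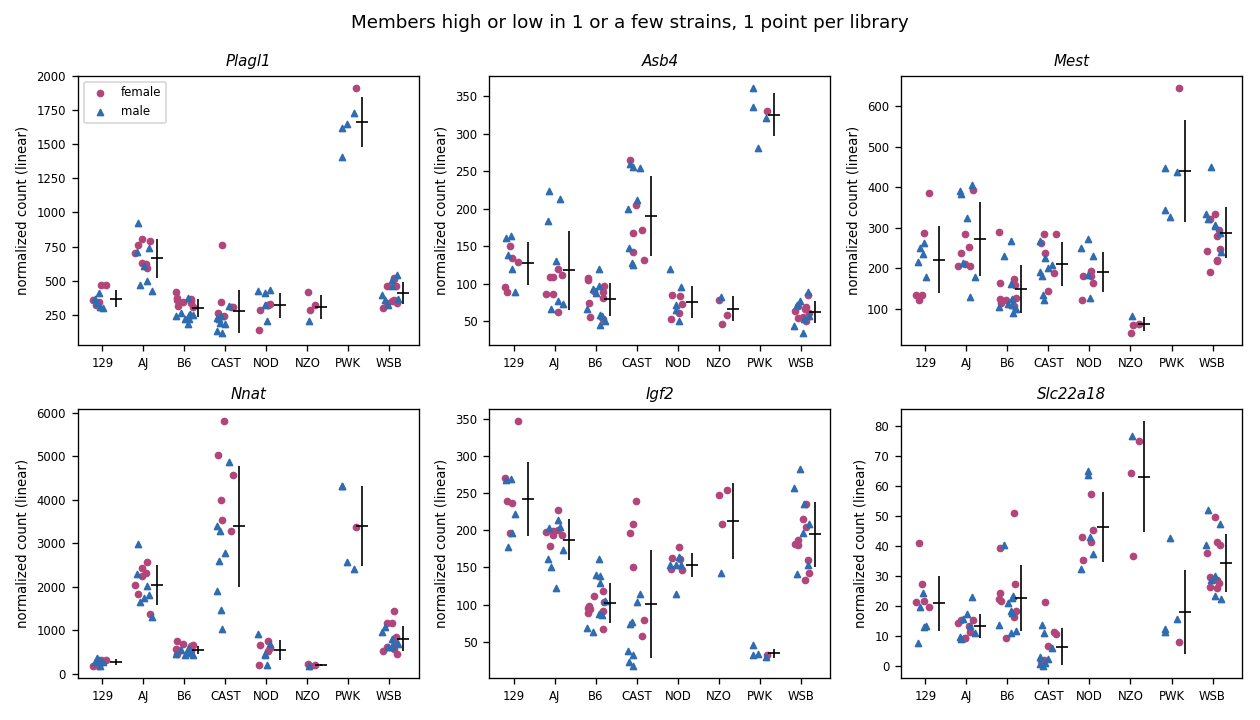
Normalized counts (linear axes) of 6 imprinted genes by strain, 1 point per library, circles female and triangles male as labelled, with the mean and SD beside the points. PWK lies above all other libraries for Plagl1 and Asb4, AJ, CAST and PWK are high for Nnat, and the lowest strain mean is in PWK for Igf2, NZO for Mest and CAST for Slc22a18.

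Members that were lower in 1 strain than in each of the other 7 numbered 6, namely Dlk1, Mest and Ppp1r9a in NZO, Igf2 in PWK, Igf2r in NOD and Slc22a18 in CAST. Among all genes tested the share was 20.4%. Igf2 (chr7:142650766-142666816), the growth factor of fetal life, and Igf2r, the receptor that takes it to lysosomes, lie on different chromosomes. The TPM of Igf2 in PWK were 1.09, 0.97, 0.8, 0.56 and 0.76. They overlapped with CAST (0.17 to 3.71) and B6 (0.93 to 2.73), while 129 had the highest median, 4.45 TPM. Igf2 was lower in PWK than in CAST by 1.44 ± 0.30 (edgeR, adjusted p = 3.65e-05) and lower than in 129 by 2.73 ± 0.32 (adjusted p = 9.15e-12) on the log2 scale. H19, the non-coding RNA that neighbours Igf2, was at 0 counts in 42 of 91 libraries, 16 of them among the 18 of B6, and reached 1.06 TPM in an NZO library.

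Igf2r had a small range of 0.63, with medians from 12 TPM in NOD to 18.9 in 129, and values of all strains overlapped. Its log2 fold change was 0.36 ± 0.06 for AJ over NOD (edgeR, adjusted p = 1.3e-07). In NOD the summed level of 6 T cell markers had a median of 136 CPM (4.14 to 642), against medians of 1.28 to 4.93 in the other strains. With acinar and lymphocyte marker levels as covariates the AJ to NOD difference was 0.24 (adjusted p = 0.0874) and Igf2r was no longer lowest in NOD.

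Slc22a18, a membrane transporter gene of the Kcnq1 cluster (chr7:143473736-143499334), was near the floor in CAST. Its 14 CAST libraries had 0 to 0.50 TPM with a median of 0.115, which came from 0 to 13 expected counts, and overlapped with 129, AJ, B6 and PWK. In NZO it had 1.23, 2.06, 2.21 and 2.34 TPM, and in NOD 0.77 to 2.05. NZO exceeded CAST by 3.33 ± 0.35 on the log2 scale (edgeR, adjusted p = 1.73e-13), and AJ exceeded CAST by 1.13 ± 0.29 (adjusted p = 0.000749), or by 1.91 in the 4-marker fit. Cdkn1c, the inhibitor of cyclin-dependent kinases in the same cluster, followed another order, with 2.64 ± 0.574 TPM (SD, n = 14) in AJ and 1.49 ± 0.528 (n = 18) in B6, a log2 fold change of 0.83 ± 0.14 (adjusted p = 3.81e-07). The log2 ratio of Cdkn1c to Slc22a18 was 2.71 ± 1.22 (n = 14) in CAST and -0.01 ± 0.15 (n = 4) in NZO (permutation test, adjusted p = 1.39e-05). Kcnq1ot1, the long antisense RNA of the cluster, had a mean of 0.116 ± 0.0438 TPM (n = 91), and Phlda2, a placental growth regulator, a mean of 0.239 ± 0.256.

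Ppp1r9a encodes neurabin, an actin-binding protein. Its TPM in NZO were 2.95, 2.77, 2.19 and 2.65, while NOD had 1.95 to 4.72 and overlapped with them. NOD exceeded NZO by 0.67 ± 0.13 (edgeR, adjusted p = 2.24e-05), or by 1.03 in the 4-marker fit, and 129 exceeded NZO by 1.63 ± 0.14 (adjusted p = 3.34e-17) on the log2 scale. All 4 NZO libraries were lower than those of 129, which had 5.49 to 9.42 TPM. NZO, where Dlk1 and Mest were also lowest, stood apart in marker levels too. The summed level of 6 duct markers had a median of 520 CPM in NZO (371 to 1229) and medians of 237 to 307 in the other strains, and the 4 alpha cell markers had a median of 4785 CPM in NZO and 9228 or more elsewhere. The part of the duct markers in these differences was not tested.

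Peg3 (chr7:6703892-6730431), a zinc finger protein gene, had 280 ± 37.7 TPM (SD, n = 10) in 129 and 128 ± 40.3 (n = 10) in NOD, a log2 fold change of 0.87 ± 0.14 (edgeR, adjusted p = 3.95e-08). That difference was 0.35 (adjusted p = 0.156) with acinar and lymphocyte marker levels as covariates and 0.12 (adjusted p = 0.744) in the 4-marker fit, where it was not called. Zim1, a zinc finger gene beside it, had 27.1 ± 12.1 TPM (n = 5) in PWK and 6.82 ± 2.80 (n = 14) in CAST, a log2 fold change of 1.76 ± 0.22 (adjusted p = 1.5e-10), and of 0.85 (adjusted p = 0.157) in the 4-marker fit. Usp29, which starts next to Peg3 on the other strand, had a range of 0.75. Their residuals within strains moved together in each of the 3 pairs. For Peg3 and Zim1 r was 0.75 and rho was 0.73, for Peg3 and Usp29 r was 0.65 and rho was 0.55, and for Usp29 and Zim1 r was 0.63 and rho was 0.65 (p = 1e-05 and adjusted p = 4.57e-05 in each, permutation test). Without 2 libraries r was 0.71, 0.53 and 0.57. With means of strain by range of library numbers removed r was 0.73, 0.67 and 0.66 (permutation test, adjusted p = 4.57e-05 in each). In libraries numbered 1 to 32 alone, Peg3 and Usp29 (r = 0.42) and Usp29 and Zim1 (r = 0.44) did not pass the threshold by r (adjusted p = 0.108 for both, permutation test), while rho of the latter pair, 0.50, did (adjusted p = 0.0321, permutation test). Such co-movement was not particular to the Peg3 cluster. Over all libraries Peg3 gave r = 0.84 with Rian, 0.73 with Meg3 and 0.65 with Mirg of chromosome 12, but 0.04 with Dlk1. Zim1 gave 0.61 with both Meg3 and Rian, and Usp29 gave 0.18 and 0.50 with them.

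Gnas, which encodes the stimulatory G protein subunit of the cyclic AMP pathway, was the second most abundant member by mean TPM (562 ± 177, n = 91). It had 825 ± 138 TPM (n = 10) in 129 and 417 ± 102 (n = 14) in CAST. In normalized counts PWK exceeded NOD by 0.73 ± 0.09 on the log2 scale (edgeR, adjusted p = 1.1e-11), and by 0.36 (adjusted p = 0.00209) in the 4-marker fit. Grb10, an adaptor that dampens insulin receptor signalling, had 18.7 ± 4.24 TPM (n = 10) in 129 and 6.71 ± 1.52 (n = 14) in CAST, a log2 fold change of 1.07 ± 0.11 (adjusted p = 2.56e-14). Inpp5f, a phosphoinositide phosphatase gene, was 1.13 ± 0.25 higher in AJ than in PWK (adjusted p = 0.000122), and Impact, a regulator of translation, was 0.64 ± 0.08 higher in AJ than in NOD (adjusted p = 2.9e-10). Neither was called in the 4-marker fit, at 0.87 for Inpp5f (adjusted p = 0.0997) and 0.26 for Impact (adjusted p = 0.205), and Impact was at 0.35 (adjusted p = 0.0502) with acinar and lymphocyte markers alone.

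In the Snrpn cluster, Ndn, which encodes necdin, had 17.9 ± 7.09 TPM (SD, n = 14) in CAST and 8.88 ± 0.678 (n = 4) in NZO, a log2 fold change of 1.19 ± 0.16 (edgeR, adjusted p = 1.04e-09), or of 0.79 in the 4-marker fit. Ube3a, a ubiquitin ligase gene, had a range of 0.31 and a log2 fold change of 0.33 ± 0.10 for PWK over WSB (adjusted p = 0.00287). Peg12 was near the floor with a median of 2 expected counts and was 1.70 ± 0.64 higher in WSB than in PWK (adjusted p = 0.0216). The Peg12 call was lost in the 4-marker fit (1.54, adjusted p = 0.0877), with limma-voom (1.37, adjusted p = 0.0544) and without PWK replicate 1 (1.69, adjusted p = 0.0505) or 4 (1.40, adjusted p = 0.0794). Mkrn3 was at 0 counts in 35 libraries. Magel2 had 0.448 ± 0.409 TPM (n = 14) in CAST and at most 0.33 TPM in any library of another strain, and its CAST libraries reached down to 0.03 TPM. The retrogene Zrsr1, which lies in an intron of Commd1, was 0.95 ± 0.14 higher in AJ than in NOD (adjusted p = 4.01e-09), while Commd1, a gene of copper metabolism, had a range of 0.28 and was 0.30 ± 0.08 higher in AJ than in NZO (adjusted p = 0.00139). Neither was called in the 4-marker fit, at 0.62 for Zrsr1 (adjusted p = 0.0593) and 0.15 for Commd1 (adjusted p = 0.344). Mcts2, another retrogene, and its host H13, a signal peptide peptidase gene, had ranges of 0.53 and 0.43. Mcts2 was 0.50 ± 0.14 higher in 129 than in B6 (adjusted p = 0.0023), and H13 was 0.47 ± 0.12 higher in NZO than in 129 (adjusted p = 0.00126). The H13 difference was 0.36 (adjusted p = 0.054) without the 12 libraries that went against their sex label and 0.04 (adjusted p = 0.93) in the 4-marker fit. The counts of Zrsr1 and Mcts2 are uncertain, since reads may be shared with their parent genes Zrsr2 and Mcts1.

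Over the 32 pairs of tested genes of 1 cluster, the TPM ratio differed between strains in 32 at adjusted p under 0.05 (permutation test), and in 24 of these the strain means also differed by at least 1 on the log2 scale (75%). Among the 529 pairs of members of different clusters the same test passed in 99.1%, and in 73% with that size, so the counts show nothing about clusters. Within strains, 13 pairs were correlated at adjusted p under 0.05, 12 of them positively. Pairs of different clusters were not put to this test, so the count of 13 has no share beside it and shows nothing about clusters. The negative pair was Snurf and Ube3a, with r = -0.25 (p = 0.0112, adjusted p = 0.0298, permutation test), rho = -0.26 (p = 0.013, adjusted p = 0.0378) and r = -0.25 without 2 libraries. In each range of library numbers taken alone it did not pass the threshold, with r from -0.44 to -0.20 (adjusted p from 0.0719 to 0.463, permutation test). The median r was 0.19 over these pairs and 0.12 over the 529 pairs of different clusters, and r was at least 0.5 in 8 pairs (25%) against 4.35% of the pairs between clusters. The comparison is a description, since pairs share genes and all share libraries. On the log2(TPM + 0.1) scale, 27 pairs were correlated, with medians of 0.50 within and 0.44 between clusters. With means of strain by range of library numbers removed, 15 pairs were correlated, the medians were 0.20 within and 0.15 between clusters, and r was at least 0.5 in 7 pairs (21.9%) against 5.86%.

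**Figure D4:**
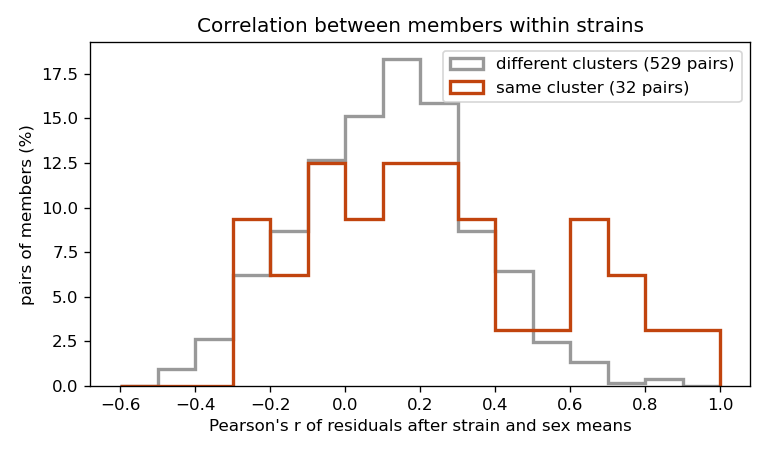
Distribution of Pearson's r (x axis) between members after strain and sex means were removed, as a percentage of pairs (y axis), for 32 pairs of 1 cluster and 529 pairs of different clusters. Most pairs of both kinds lie between -0.3 and 0.5, and 25% of the pairs of 1 cluster against 4.35% of the others reach 0.5.

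A difference between the sexes was called for 5 of 34 members, against 3.15% of all genes tested. Peg10, Sgce, Dlk1 and Zim1 were higher in females and H13 higher in males. The H13 call was lost without NZO replicate 4, without PWK replicate 1 and with NOD or PWK left out, and the Dlk1 call with limma-voom and with no filter on low counts. Peg10, a gene derived from a retrotransposon, and its neighbour Sgce, which encodes a sarcoglycan, start next to each other on opposite strands (chr6:4747306-4760517 and chr6:4674350-4747207). In CAST, Peg10 had a median of 714 normalized counts in 6 female libraries (447 to 1184) and of 310 in 8 male libraries (217 to 697), which overlapped. In 7 and 7 libraries of AJ, all females (215 to 349) were above all males (98.8 to 209). In 129, where 6 of 10 libraries went against their label, the median was lower in females, 345, than in males, 570. Over all strains the log2 difference of males minus females was -0.89 for Peg10 (edgeR, adjusted p = 1.48e-05), -0.34 for Sgce (adjusted p = 0.00195), -0.39 for Dlk1 (adjusted p = 0.0202), -0.36 for Zim1 (adjusted p = 0.0216) and 0.15 for H13 (adjusted p = 0.0334). After strain and labelled-sex means were removed, residuals of Peg10 and Sgce gave r = 0.64 and rho = 0.63 (p = 1e-05, adjusted p = 4.57e-05 for both, within-strain permutation test), and r = 0.63 without 2 libraries. Those sex means followed the label also in the 12 libraries that went against it. In libraries numbered 1 to 32, 34 to 65 and above 65, r was 0.71, 0.51 and 0.67 (permutation test, adjusted p = 0.00192, 0.0274 and 0.00137).

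**Figure D5:**
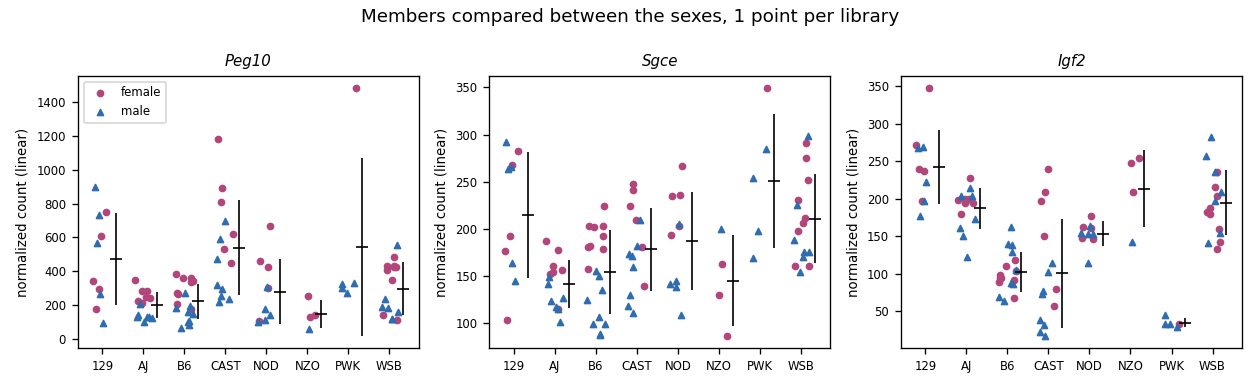
Normalized counts (linear axes) of Peg10, Sgce and Igf2 by strain, 1 point per library, circles female and triangles male as labelled, with the mean and SD beside the points. Female points lie above male points for Peg10 in AJ, and for Igf2 the CAST medians are 173 in females and 55.6 in males.

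Without the 12 libraries whose sex markers went against the label, 11 members had a sex difference, the 5 above and Blcap, Commd1, Grb10, Nnat, Plagl1 and Usp29, and the count over all genes rose from 599 to 1518. With alpha and delta cell marker levels among the covariates, no member had one at an adjusted p under 0.05, and 81 of all genes did. The part of these markers in the sex differences was not tested.

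The sex difference itself varied between strains for Igf2 (edgeR's quasi-likelihood interaction test over 6 strains, adjusted p = 0.004) and Plagl1 (adjusted p = 0.0234), 2 of 34 members against 4.78% of all genes. Igf2 in CAST had 57.5 to 240 normalized counts with a median of 173 in females and 17.2 to 114 with a median of 55.6 in males, which overlapped. In WSB the medians were 182 in females and 209 in males. Plagl1 in B6 had medians of 347 in females and 245 in males, and in NOD 318 in females and 412 in males. Both calls were also made without the 12 libraries that went against their label, where the share of all genes called was 14.0%.

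Of 17 genes known to act in setting or keeping imprints, 15 were tested and all 15 differed between strains, against 94.7% of all genes tested. Uhrf1 and Dnmt1, which copy methylation at replication and are active in dividing cells, were highest in NOD, Trim28 was highest in PWK and Setdb1 lowest in NOD. These are 3 and 1 of 15, against 23.4% and 20.4% of all genes tested. Uhrf1 had 6.25 ± 7.05 TPM (SD, n = 10) in NOD and 0.336 ± 0.186 (n = 14) in CAST (edgeR, adjusted p = 2.57e-23). Zfp57, a zinc finger protein that holds imprints, had 1.16 ± 0.969 TPM in NOD and 0.268 ± 0.133 (n = 18) in B6 (adjusted p = 7.02e-13), and Tet1, a demethylating enzyme, had 3.27 ± 1.06 in 129 and 1.63 ± 0.739 (n = 4) in NZO (adjusted p = 1.38e-10). Several marker levels also had their highest strain median in NOD. They were those of T cells (136 CPM), B cells (171), macrophages (501), mesenchyme (461) and acinar cells (86901). The relation of these markers to Uhrf1, Dnmt1 and Zfp57 across libraries was not tested. The median range of strain means was 0.51 in this list and 1.03 over all genes tested. Of 32 other genes known as imprinted, 26 were tested and all 26 differed between strains, with a median range of 1.44, beside the same 94.7% and 1.03. Pon2 had 14.2 ± 7.37 TPM (n = 10) in NOD and 0.711 ± 0.449 (n = 14) in CAST (adjusted p = 1.2e-56), Tfpi2 had 8.68 ± 3.74 (n = 14) in CAST and 0.286 ± 0.213 (n = 5) in PWK (adjusted p = 2.58e-34), and Pon3 had 10.8 ± 5.27 (n = 4) in NZO and 0.716 ± 0.230 (n = 16) in WSB (adjusted p = 5.25e-52).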

How the data were processed

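Reads were quantified by the authors with RSEM, mm10 and GENCODE vM18. For each library the authors deposited an expected count per gene, not normalized, and a TPM value, a level per length that sums to a fixed total. The RSEM version and strand setting are not given in the sources used here. Reads of CAST, PWK and WSB that differ from the reference may align less well, which was not tested.

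Groups came from the strain and sex labels. Identifiers were matched to GENCODE M21 (GRCm38) for coordinates, and 67 genes had no match. Genes of all biotypes on chromosomes 1 to 19 and X were kept when outside the lowest 10% of variance and non-zero in at least 85% of libraries. Rounded expected counts were tested with edgeR 4.0.16 (quasi-likelihood, upper-quartile factors, strain and sex, R 4.3.3). The 28 strain pairs were contrasts of that fit, with p-values adjusted by Benjamini-Hochberg over all genes tested. A gene was highest or lowest in a strain when it passed 0.05 against each of the other 7. SE was the fold change over the square root of F. Normalized counts are counts scaled to the mean effective library size. Ratios (TPM + 0.1) and residual correlations used 100000 permutations, two-sided for correlations, over 32 pairs, and ratios of the 529 pairs of different clusters used 10000. The interaction was fitted over the 82 libraries of 6 strains. The floors cover counting error only.

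Values are given for the highest and most variable tested member of each cluster and for members called in 1 strain or by sex. The members, lists and tests were chosen with earlier results of these data known. The scripts were tested on simulated data. There the error rates held, but changes of about 2-fold were often missed in PWK, which has 5 libraries, and by the rule for 1 strain also in CAST, so the absence of a call does not show that a gene did not differ. Alternatives were TMM and median-ratio factors, 3 filters, limma-voom (limma 3.58.1), DESeq2 1.42.0, left-out libraries and strains, marker covariates and ranges of library numbers.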

Additional observations from a re-analysis of the deposited data

Results flagged for a closer look

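In strains of 4 to 10 libraries, 1 library stood far from the others of its strain for 7 of the 136 groups checked, where chance gives about 6.8. Dlk1 had 370 normalized counts in 129 replicate 1 (median of the others 85.2) and 51.5 in NZO replicate 4 (22.6). Peg10 had 1480 in PWK replicate 1, the one female library of PWK (314). Igf2 had 114 in NOD replicate 8 (154), Ndn 772 in NZO replicate 2 (722), Snurf 125 in 129 replicate 5 (86.9) and Peg12 0 in PWK replicate 4 (2.07). The sex difference varied between strains for Igf2 (edgeR's quasi-likelihood interaction test, adjusted p = 0.004) and for Plagl1 (adjusted p = 0.0234).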

How the results depend on the processing

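Of 128 recomputed counts, 120 stayed within 1.5 times the reported one. The 34 members with a strain effect became 17 when a log2 difference of at least 1 between strains was also asked for. The 5 members highest in 1 strain became 9 in 129, NOD, NZO and PWK alone, where the rule asked for a difference from only 3 other strains instead of 7, and 2 with acinar, lymphocyte, alpha and delta marker covariates. The 5 members with a sex effect became 11 without the libraries whose sex markers went against the label, 0 in those 4 strains alone (where edgeR called 0 of all genes) and 0 with those covariates. The 13 correlated pairs became 27 on the log2(TPM + 0.1) scale and 6 in libraries numbered 1 to 32 alone (11 and 13 in the ranges 34 to 65 and above 65). The fits by number range, of those 4 strains alone, with alpha and delta markers, and without PWK (33 members with a strain effect, and against 6 other strains 6 highest and 5 lowest) were chosen after seeing the data. The cause of these changes was not tested. Leaving out each NZO or PWK library in turn gave 34 members with a strain effect, 4 to 6 highest, 6 lowest, 4 or 5 with a sex effect (H13 was the one lost), 32 pairs by ratio and 11 to 15 correlated pairs. Over 45 fold changes, 934 recomputed values kept direction and side of the threshold and 33 lost the call, 22 of them in the fit with the 4 groups of marker covariates. For Peg10 the difference of PWK minus NZO, 2.24, reversed to -1.22 with the 4 groups of marker covariates (adjusted p = 0.239, edgeR). TMM and median-ratio factors moved the median of all genes by at most 0.0503 and 0.0737 on the log2 scale. No paired analysis was possible because library numbers are not shared between strains and no label ties libraries of different groups to each other. In NZO and PWK the number of libraries, and for Slc22a18, Peg12, H19 and Mkrn3 the counts, limit what could be detected.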
